A study of Homo sapiens with 4 samples.

Results

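PARP9, PARP10, PARP12, PARP14, DTX3L and ZC3HAV1 are 6 interferon-inducible genes of the PARP system. They were taken by symbol from the 27685 genes of the deposited RNA tables, where they hold 15 of 63714 annotated transcripts, and the reads of a gene's transcripts were summed. RNA was sequenced from HT-29, a human colon cancer line of epithelial origin, carrying either a control vector (genotype WT in the sample labels) or a stably expressed, N-terminally Myc-tagged TRIM40 (genotype TRIM40 overexpression). TRIM40 is a ubiquitin ligase of the TRIM family. According to the study's methods it was cloned into a pMSCV retroviral vector, so it was expressed from an introduced copy. Both groups grew in RPMI medium with serum and had no treatment beyond the making of the lines. For that step the study's methods describe selection of transduced cells with puromycin. Whether the line was a clone or a mixed population is not given in the sources used here. Each of 2 experiments gave 1 control and 1 Myc-TRIM40 library, 4 in all, with library totals between 60954602 and 67424698 reads.

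PARP enzymes transfer ADP-ribose from NAD+ onto proteins or nucleic acids. The interferon-inducible members of the family mostly attach a single ADP-ribose unit, and several carry macrodomains, which bind ADP-ribose. PARP9 works in a complex with DTX3L, a ubiquitin ligase of the Deltex family. ZC3HAV1, the zinc-finger antiviral protein or ZAP, lacks enzyme activity and binds CpG-rich viral RNA, which is then degraded. Type I interferon induces these genes through a transcription factor complex that includes STAT2 and IRF9 and binds a short DNA element called the ISRE in front of its targets.

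The question put to the data was how the RNA of these 6 genes differed between HT-29 cells with Myc-TRIM40 and control cells. All 6 genes had higher RNA levels with Myc-TRIM40 in both experiments, and in all 6 the difference was larger in experiment 1. PARP9 differed most in experiment 1, by 7.33-fold, and PARP14 most in experiment 2, by 2.23-fold. ZC3HAV1 had the most similar folds in the 2 experiments, 1.80 and 1.57. PARP10 was 5.20-fold higher in experiment 1 and 1.02-fold higher in experiment 2, where its counting interval included no difference. These folds are ratios of reads after scaling by TMM, a normalization that sets the bulk of genes level between libraries. A dependence of the folds of experiment 2 on transcript length was not tested. No gene of the 6 passed an adjusted p of 0.05 in edgeR's quasi-likelihood test.

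The DNA just upstream of 3 of these genes is shown here because it holds the core of an ISRE. Promoter windows of 300 bases from RefSeq (build GRCh38.p14) were available for PARP9, PARP12, PARP14, DTX3L and ZC3HAV1. The ISRE core was searched on both strands as GAAANNGAAA, and the core of the gamma-activated sequence (GAS), an element of genes induced by interferon gamma, as TTCNNNGAA, which reads the same way on both strands. The matches are in capitals in the stretches that follow, 5′ to 3′ on the gene's strand, with 120 bases before the annotated start and 20 from the start on. The DTX3L stretch is chr3:122564218-122564357 on the plus strand, the PARP14 stretch is chr3:122680719-122680858 on the plus strand, and the PARP12 stretch is chr7:140062932-140063071 on the minus strand.
DTX3L: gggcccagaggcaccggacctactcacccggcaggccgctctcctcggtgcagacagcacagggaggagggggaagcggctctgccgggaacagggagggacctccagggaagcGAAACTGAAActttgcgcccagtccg
PARP14: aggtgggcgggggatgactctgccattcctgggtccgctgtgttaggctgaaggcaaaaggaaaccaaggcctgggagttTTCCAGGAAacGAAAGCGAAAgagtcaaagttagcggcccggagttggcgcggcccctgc
PARP12: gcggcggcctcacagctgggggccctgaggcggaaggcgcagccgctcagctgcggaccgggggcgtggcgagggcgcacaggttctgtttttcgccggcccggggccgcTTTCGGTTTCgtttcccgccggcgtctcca
In DTX3L the capitals mark GAAACTGAAA, which begins 6 bases before the start. PARP9 is transcribed in the opposite direction from the same region, and in 1 of its 2 windows the same 10 bases, chr3:122564332-122564341, lie 41 bases before its start. PARP14 holds GAAAGCGAAA 29 bases before its start and, separate from it, the GAS core TTCCAGGAA 40 bases before. PARP12 holds TTTCGGTTTC, the ISRE core read from the other strand, 10 bases before its start. ZC3HAV1 holds a GAS core 104 bases before its start and no ISRE core in its window. Of 35116 promoter windows of this length, 3.57% hold the ISRE core and 7.66% the GAS core. A match describes the letters and does not show that a factor binds there.

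PARP9 and DTX3L encode the partners of 1 complex. PARP9 stood at 9.18 FPKM (control) and 60.3 FPKM (Myc-TRIM40) in experiment 1, and at 8.13 and 18.2 FPKM in experiment 2. FPKM is the read number scaled by transcript length and library total, so it can be compared between genes. Both Myc-TRIM40 libraries lay above both controls, and the control libraries lay close to each other. The log2 ratio of TMM-scaled reads was 2.87 in experiment 1 (95% counting interval 2.81 to 2.94) and 1.06 in experiment 2 (0.99 to 1.14). These intervals cover counting error only, not the spread between cultures. DTX3L, which shares its start region with PARP9, stood at 12.0 and 42.5 FPKM in experiment 1 and at 9.25 and 17.8 FPKM in experiment 2. Again the groups did not overlap. Its log2 ratios were 1.78 (1.73 to 1.83) and 0.82 (0.76 to 0.88). The ratio of PARP9 to DTX3L in FPKM was 0.762 and 0.879 in the controls and 1.42 and 1.02 with Myc-TRIM40. DTX3L thus had the higher level in both controls and PARP9 in the Myc-TRIM40 library of experiment 1. In that of experiment 2 the genes were nearly equal, at 18.2 FPKM for PARP9 and 17.8 FPKM for DTX3L. The ratio also depends on how reads were assigned to the transcripts of PARP9 and to the bases that the genes share.

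PARP14, a large enzyme with several macrodomains that is known for roles in STAT6 signalling and in the interferon response, was at 12.9 and 56.7 FPKM in experiment 1 and at 6.42 and 15.7 FPKM in experiment 2. Of the 6 genes it had the largest gap between the control libraries, with a log2 ratio of experiment 2 to experiment 1 of -0.91. The Myc-TRIM40 library of experiment 2 therefore lay only a little above the control library of experiment 1. Within experiments the log2 ratios were 2.10 (2.06 to 2.14) and 1.16 (1.10 to 1.22). PARP14 had the smallest unadjusted p of the 6 genes, 0.000297, rank 26 of 14868 genes tested.

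PARP12 and PARP10 are mono-ADP-ribosyltransferases. PARP12, which has zinc fingers and is linked to the block of viral translation, was at 9.86 and 40.4 FPKM in experiment 1 and at 9.36 and 12.7 FPKM in experiment 2. The 2 controls were nearly level, whereas the Myc-TRIM40 libraries were far apart. Its log2 ratios were 1.99 (1.93 to 2.06) and 0.31 (0.24 to 0.39). PARP10, which restrains cell proliferation when overexpressed, was at 4.18 and 22.5 FPKM in experiment 1 and at 4.26 and 4.77 FPKM in experiment 2. It was the lowest of the 6 genes in every library, and only the Myc-TRIM40 library of experiment 1 stood apart. Its log2 ratios were 2.38 (2.28 to 2.48) and 0.03 (-0.10 to 0.15). In experiment 2 the PARP10 interval included 0, so no difference was found there beyond counting error.

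ZC3HAV1 was at 14.2 and 30.0 FPKM in experiment 1 and at 10.5 and 16.9 FPKM in experiment 2. It was the highest of the 6 genes in both controls and had the smallest difference in experiment 1. Its log2 ratios were 0.85 (0.80 to 0.90) and 0.65 (0.59 to 0.70). The FPKM ratio of experiment 1 was larger than the read ratio, 2.04 on the FPKM + 1 scale against 1.80 on the TMM scale, because a short transcript of the gene took a larger share of the reads, as described below.

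**Figure D1:**
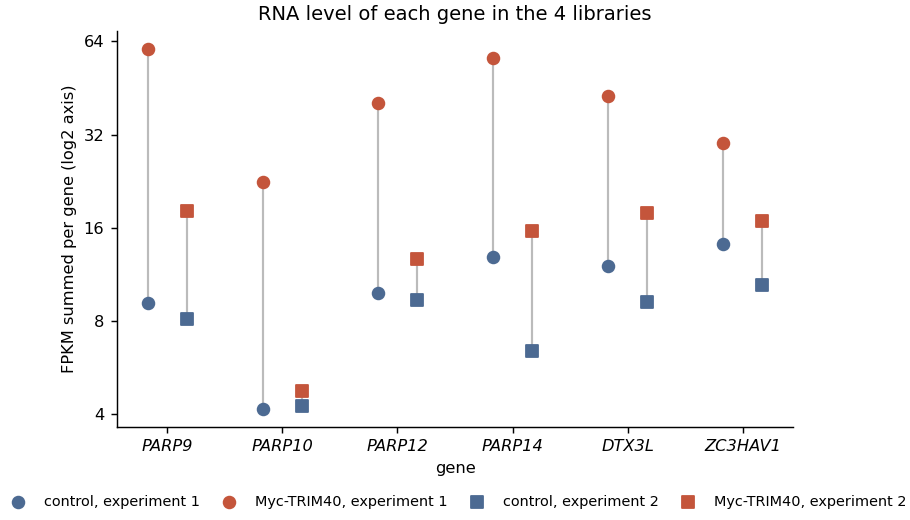
RNA level of each gene (FPKM summed over its transcripts, log2 axis) in the control libraries (blue) and the Myc-TRIM40 libraries (red) of experiment 1 (circles) and experiment 2 (squares), 1 library per point, with grey lines joining the libraries of an experiment. Every red point lies above the blue point of its experiment, and PARP10 in experiment 2 has the shortest line, from 4.26 to 4.77 FPKM.

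Among the controls, ZC3HAV1 had the highest mean, 12.4 ± 2.62 FPKM (SD, n = 2), followed by DTX3L at 10.6 ± 1.98, PARP14 at 9.64 ± 4.55, PARP12 at 9.61 ± 0.358 and PARP9 at 8.65 ± 0.741. Neighbours in this order overlapped, except PARP12 and PARP9, whose ranges of 2 libraries lay just apart. PARP10 was well below them, at 4.22 ± 0.0583 FPKM (SD, n = 2). With Myc-TRIM40 the order was PARP9 at 39.2 ± 29.8 FPKM (SD, n = 2), PARP14 at 36.2 ± 29.0, DTX3L at 30.1 ± 17.4, PARP12 at 26.5 ± 19.6, ZC3HAV1 at 23.4 ± 9.26 and PARP10 at 13.6 ± 12.5, and no neighbours differed beyond their spread. PARP9 was the fifth of the 6 genes in the control of experiment 1 and the fourth in that of experiment 2. It had the highest level in both Myc-TRIM40 libraries, in experiment 2 only just above DTX3L.

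Both experiments entered a single edgeR fit with the experiment as a block. The estimated log2 fold change was 1.97 for PARP9 (SE 0.41, unadjusted p = 0.00108), and its adjusted p was 0.351. PARP14 had an estimate of 1.63 (SE 0.28) with an adjusted p of 0.166. For DTX3L the estimate was 1.30 (SE 0.28, unadjusted p = 0.00139) with an adjusted p of 0.391. These 3 genes had the smallest p-values of the group. PARP10 at 1.21 (SE 0.49, unadjusted p = 0.0382), PARP12 at 1.15 (SE 0.37, unadjusted p = 0.0140) and ZC3HAV1 at 0.75 (SE 0.22, unadjusted p = 0.00847) shared an adjusted p of 0.888. The gene with the smallest fold change, ZC3HAV1, thus had a smaller p than PARP10 and PARP12, whose experiments lay further apart. The median log2 fold change of the 6 genes was 1.25, against 0.04 over all genes tested.

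**Figure D2:**
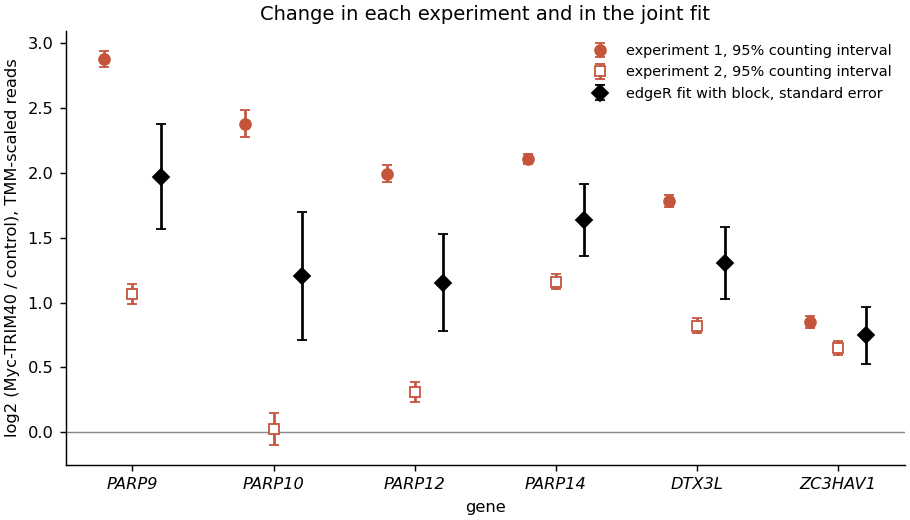
log2 ratio of Myc-TRIM40 to control for each gene in experiment 1 (filled circles) and experiment 2 (open squares), from TMM-scaled reads with 95% counting intervals, and the edgeR estimate over both experiments (diamonds) with its standard error. The circles lie above the squares for every gene, by 0.20 for ZC3HAV1 and by 2.35 for PARP10, and the counting intervals are narrow beside the gap between experiments.

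Counts over the 6 genes stand beside the same counts over all genes. At an adjusted p under 0.05, edgeR called 0 of the 6 genes higher, where 0.0404% of the 14868 genes tested, TRIM40 among them, were called higher. All 6 genes were higher at an unadjusted p under 0.05, where the share over all genes was 3.41%. By DESeq2, a second count model that was used as an alternative, PARP9 (adjusted p = 2.47e-05), PARP14 (7.16e-06) and DTX3L (0.00245) passed, where 0.303% of genes were called higher. PARP12 (0.189), ZC3HAV1 (0.355) and PARP10 (1.0) did not. PARP9, PARP14 and DTX3L also belong to a list that the study picked from these libraries, so their calls are not independent evidence of their direction. The 2 tools differ in how they estimate the spread from 2 experiments, and which is nearer to the truth was not tested.

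Without a model, 4 of the 6 genes (PARP9, PARP14, DTX3L and ZC3HAV1) were at least 1.5-fold higher in FPKM + 1 in both experiments, as were 0.568% of the 11801 genes that averaged 1 FPKM or more over the libraries. PARP10 and PARP12 missed this limit in experiment 2, at 1.10-fold and 1.32-fold. All 6 genes had both Myc-TRIM40 libraries above both controls in FPKM, which held for 12.8% of the 11801 genes. With groups of 2, the smallest two-sided p of an exact permutation test is 0.333, so none was made for single genes. By the size of the FPKM + 1 ratio, PARP9 ranked 26 and PARP10 ranked 44 of the 11801 genes in experiment 1. In experiment 2 PARP14 ranked 142 and PARP9 ranked 191, and PARP10 ranked 5558, near the middle of all genes. Some genes outside the 6 also moved mainly in experiment 2, in either direction. In log2 ratios of FPKM + 1, HUWE1 (-0.12, then 1.08) and PRPF8 (-0.04, then 1.15) went up. COX6C (0.11, then -0.72) and ROMO1 (-0.12, then -0.80) went down. The part of transcript length in such shifts was not tested.

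**Figure D3:**
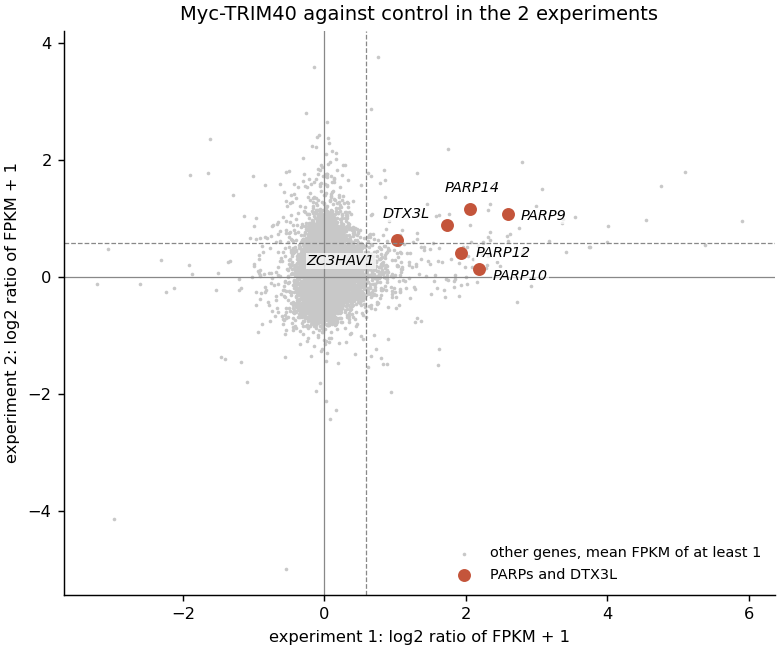
log2 ratio of FPKM + 1, Myc-TRIM40 to control, in experiment 1 (horizontal) and experiment 2 (vertical) for genes averaging 1 FPKM or more (grey, TRIM40 left out) and for the 6 genes (red). Dashed lines mark 1.5-fold in each experiment. PARP9, PARP14, DTX3L and ZC3HAV1 lie beyond both lines, and PARP12 and PARP10 beyond that of experiment 1 only.

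The 2 experiments also differed in the amount of TRIM40 RNA. TRIM40 had 0 reads in both controls. The Myc-TRIM40 libraries had 272646 (experiment 1) and 110665 (experiment 2), which is 2.53 times more in experiment 1 after TMM scaling. Together the 6 genes took 22108 reads in the control and 85519 with Myc-TRIM40 in experiment 1, and 17128 and 29839 reads in the libraries of experiment 2. The part of the TRIM40 level in this gap was not tested, and with 1 library per condition in an experiment the size of the gap has no test. Between the controls, log2 ratios of experiment 2 to experiment 1 ranged from -0.91 for PARP14 to 0.11 for PARP10. Between the Myc-TRIM40 libraries they ranged from -2.24 for PARP10 to -0.70 for ZC3HAV1. For PARP10 and PARP12 the controls were nearly level, whereas for PARP14 (-0.91 and -1.86) and ZC3HAV1 (-0.50 and -0.70) the controls differed as well.

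HT-29 carried the markers of its label. Of 10 markers of colonic epithelium, 9 had at least 1 FPKM in each library, with VILL below, and their summed level was between 6829 and 9402 FPKM. Most of this sum came from KRT8 and KRT18. CDX2 (1.22 to 1.39 FPKM) and CEACAM5 (1.36 to 2.66 FPKM) were not far above the limit of 1 FPKM. The 4 leukocyte markers summed to between 8.43 and 14.2 FPKM, nearly all of it from CD68 and CD14. The sum was highest in the Myc-TRIM40 library of experiment 1, where CD68 had its highest level, 11.9 FPKM. CD14 was at 2.36 FPKM there and highest in the control of experiment 2, at 2.61 FPKM. CD3E had 0 reads and PTPRC between 0 and 4 reads. The 7 markers of fibroblasts and endothelium summed to between 0.380 and 1.11 FPKM, and COL1A2, COL3A1 and DCN were at 0. In bulk RNA, more cells that express a gene and more RNA per cell cannot be told apart.

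The genes lie in 3 regions of the genome, given here in the coordinates of the files (hg19). PARP9 (Entrez gene 83666) spans chr3:122246760-122283523 and DTX3L (151636) spans chr3:122283185-122294049, on opposite strands with 339 bases in common at their 5′ ends. PARP14 (54625) lies nearby at chr3:122399672-122449687. PARP12 (64761), at chr7:139723544-139763521, and ZC3HAV1 (56829), at chr7:138728266-138794465, are neighbours at a greater distance. PARP10 (84875) is at chr8:145051320-145060639. The library kit preserves strand, but the strand setting of the counting is not given in the sources used here, so reads of the bases shared by PARP9 and DTX3L may have been assigned to either gene. No other overlap of the 6 genes with a gene of at least 10 reads was found.

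PARP14 and DTX3L have 1 annotated transcript each in the tables, of 7708 and 5767 bases, and the other 4 genes have several. The division of a gene's reads between its transcripts is an estimate by the authors' software, with 1 library per condition and experiment, so it is described here without a test.

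ZC3HAV1 has a long form, whose product carries the inactive PARP domain, and a short form that lacks it. The long transcript of 7171 bases had 5732 and 9264 reads in experiment 1, then 3827 and 6444 in experiment 2, which is 1.57-fold and 1.67-fold higher with Myc-TRIM40 after TMM scaling. The short transcript of 3182 bases had 284 and 1869 reads in experiment 1, then 621 and 588 in experiment 2, a ratio of 6.41 and of 0.938. The long form was thus higher by about the same factor in both experiments, and the short form only in experiment 1. The forms differ in length, and an effect of length on their ratios in experiment 2 was not tested. The share of reads on the short form was 4.72% in the control (exact 95% binomial interval 4.20 to 5.29) and 16.8% with Myc-TRIM40 (16.1 to 17.5) in experiment 1, and 14.0% (13.0 to 15.0) and 8.36% (7.73 to 9.03) in experiment 2. The share went in opposite directions in the 2 experiments, and the controls differed from each other as well. The binomial intervals do not cover error in dividing reads between the forms.

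In PARP12 the coding transcript of 3796 bases held most reads in every library, with 2226 and 8277 reads in experiment 1 and 2384 and 2918 in experiment 2. A non-coding transcript of 3654 bases had 113 and 1282 reads in experiment 1, then 79 and 168 in experiment 2. Its ratios were 11.0 and 2.11, larger than the 3.62 and 1.21 of the coding transcript, and its share went from 4.83% to 13.4% of the gene's reads in experiment 1 and from 3.21% to 5.44% in experiment 2. The share of the non-coding transcript was therefore higher with Myc-TRIM40 in both experiments.

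PARP10 gave most reads to a transcript of 3522 bases, with 749 and 4580 reads in experiment 1, then 972 and 784 in experiment 2, ratios of 5.95 and 0.799. A non-coding transcript of 3377 bases had 0 reads in both controls and 310 and 203 reads in the Myc-TRIM40 libraries. Taking 3 reads in the control library as the level that a count of 0 allows, the ratio of assigned reads was at least 101-fold in experiment 1. In experiment 2 it was at least 67.1-fold. These bounds cover counting error only, not error in dividing reads between the PARP10 transcripts. PARP10 as a whole had 1045 and 1074 reads in experiment 2. The bounds were computed for the 3377-base transcript because its control counts were 0, so its separation from the controls is not a separate result. In experiment 2 the 3522-base transcript had fewer assigned reads with Myc-TRIM40, 784 against 972. A shift of assigned reads between the PARP10 transcripts was not tested. The third transcript, of 3646 bases, had 179 and 64 reads in experiment 1, then 73 and 87 in experiment 2.

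PARP9 has 6 transcripts. The longest, of 6801 bases, had the most reads summed over the 4 libraries, mostly from the Myc-TRIM40 library of experiment 1, with 852 and 9610 reads in experiment 1, then 445 and 1097 in experiment 2, ratios of 11.0 and 2.44. Its share was 37.4% and 56.1% of the reads in experiment 1 and 21.8% and 25.5% in experiment 2. It did not lead in experiment 2, where the 3056-base transcript had the most reads in the control (454) and the 3238-base transcript with Myc-TRIM40 (1557). By FPKM, which divides by length, the 6801-base transcript held 21.8%, 37.4%, 11.6% and 13.8% of the gene in the control and Myc-TRIM40 libraries of experiments 1 and 2, in that order, and the 3056-base transcript 33.7%, 23.1%, 26.3% and 26.4%. The other 5 transcripts had between 53 and 2664 reads in a library. Of these, 4 were higher with Myc-TRIM40 in both experiments, and the transcript of 3237 bases was the exception, with 53 and 145 reads in experiment 1, then 435 and 66 in experiment 2. A transcript of nearly the same length, 3238 bases, had 373 and 1652 reads in experiment 1, then 280 and 1557 in experiment 2. Sorted by 5′ end, the 2 PARP9 transcripts that begin farthest inside DTX3L had 596 and 3249 reads in experiment 1, then 506 and 1862 in experiment 2, ratios of 5.31 and 3.65. The 4 transcripts with nearer ends had 1680 and 13887 reads in experiment 1, then 1531 and 2436 in experiment 2, ratios of 8.05 and 1.58. In experiment 2 the ratio of the far set came mostly from the 3238-base transcript, at 5.51, since its other member, of 3343 bases, was at 1.34. The near set included the 3237-base transcript, at 0.150 in experiment 2.

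**Figure D4:**
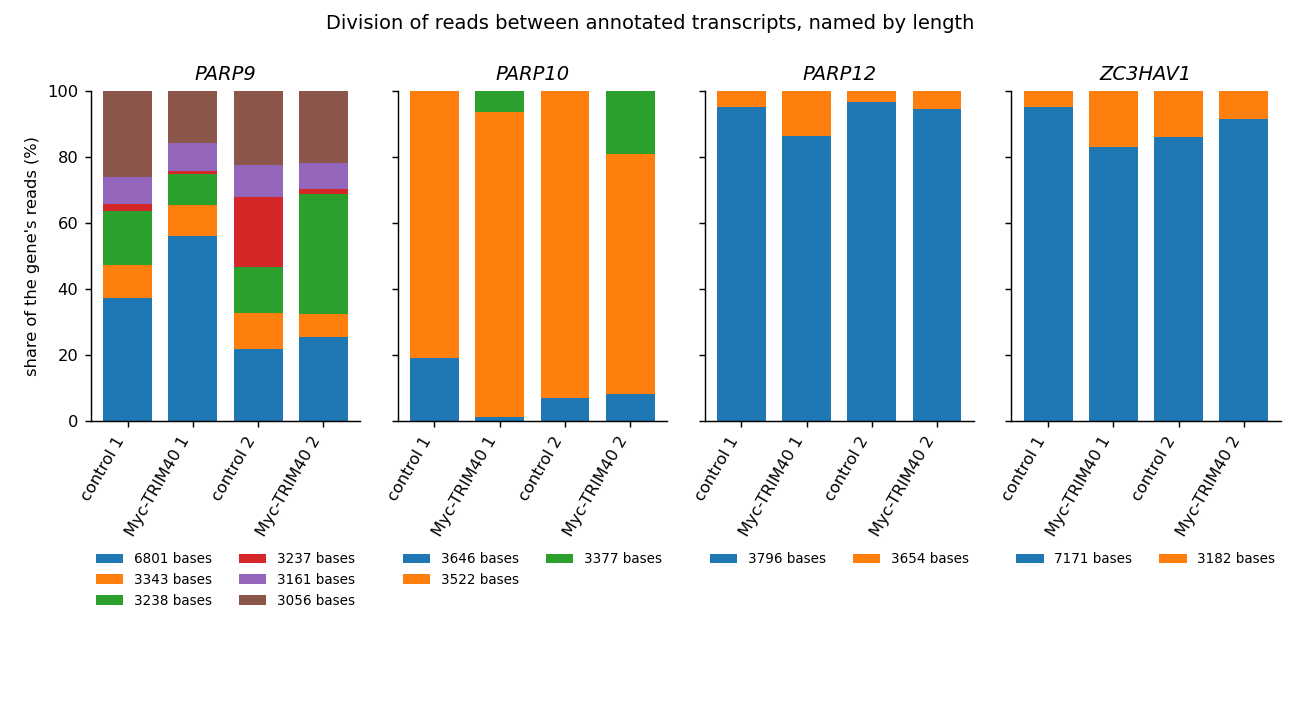
Share of the reads of PARP9, PARP10, PARP12 and ZC3HAV1 (vertical, percent) that was assigned to each annotated transcript, named by its length in bases, in each library (horizontal, condition and experiment number). The 3377-base transcript of PARP10 is seen only with Myc-TRIM40, and the 3182-base share of ZC3HAV1 is larger with Myc-TRIM40 in experiment 1 and smaller in experiment 2.

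The rest of the PARP family was examined in the same fit. Of 12 other PARP enzymes, among them PARP1, which acts in DNA repair, 11 could be tested and 0 were higher or lower at an unadjusted p under 0.05. Over all genes 3.41% were higher at this limit in edgeR, and the share lower was not computed. A count of 0 in a list this short therefore says little. Their median log2 fold change was 0.34, with medians of 0.18 and 0.35 in experiments 1 and 2, from -0.19 for PARP16 to 0.47 for TNKS. In experiment 2 alone, TNKS (0.76) and PARP4 (0.68) had log2 ratios of TMM-scaled reads above those of ZC3HAV1, PARP12 and PARP10. PARP15 had 0 reads. Of 10 genes for proteins that remove ADP-ribose or carry a macrodomain, 0 passed in either direction, with a median of -0.14. Their highest was ADPRH at 0.14 and their lowest H2AFY2, a macrodomain histone, at -1.06, with no more than 45 reads in any library. Of the 4 other Deltex ligases, relatives of DTX3L, DTX4 (0.11) and DTX2 (0.05) could be tested and did not pass, and DTX1 and DTX3 had 0 reads. Of 12 genes of NAD synthesis, which supply the substrate of PARPs, 8 could be tested and 0 passed. Their median was 0.18, with NMNAT1 lowest at -0.32 and NMNAT3 highest at 2.14 from no more than 30 reads in any library.

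ZC3HAV1 acts with other proteins, and 11 of these, its paralog included, were tested. TRIM25, a ubiquitin ligase and cofactor of ZC3HAV1, was the single one at an unadjusted p under 0.05 in edgeR (0.0128). The share of all genes higher at this limit was 3.41%. The log2 fold change of TRIM25 was 0.70 (SE 0.22). Its level was 26.9 and 50.5 FPKM in experiment 1 and 16.7 and 26.2 FPKM in experiment 2, so within each experiment it was higher with Myc-TRIM40, although the lower Myc-TRIM40 library lay below the higher control. The median of these genes was 0.22, from -0.34 for EXOSC5, a subunit of the RNA exosome, to 0.91 for ZC3HAV1L, the paralog, which had 529 and 436 reads in experiment 1, then 73 and 350 in experiment 2.

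The interferon signal chain, the receptors, kinases, transcription factors and feedback inhibitors that control these genes, had 12 of 13 genes tested. In edgeR, STAT2, IRF9 and USP18 were higher at an unadjusted p under 0.05, where the share over all genes was 3.41%. At that limit 0 were lower, and 0 passed the adjusted p of 0.05. DESeq2 called IRF9 and USP18 higher, where 0.303% of all genes were called higher. These genes, IRF9 and USP18, are also in the list that the study drew from these libraries. IRF9, the DNA-binding partner of STAT2, was at 9.17 and 41.4 FPKM in experiment 1, then at 8.18 and 15.9 FPKM in experiment 2, with a log2 fold change of 1.49 (SE 0.32). It had the shape seen in PARP9, with nearly level controls and a larger difference in experiment 1. STAT2 was at 5.88 and 12.7 FPKM in experiment 1 and at 3.58 and 5.33 FPKM in experiment 2, with a log2 fold change of 0.76 (SE 0.24). IRF1, a further interferon-induced factor, was at 9.24 and 17.5 FPKM in experiment 1 and at 7.23 and 8.10 FPKM in experiment 2, with a log2 fold change of 0.46 (SE 0.26, unadjusted p = 0.108). USP18, a feedback inhibitor of the type I receptor, had the highest log2 fold change of the chain at 1.68, and the receptor gene IFNGR2 the lowest at -0.02. The median of the chain was 0.34.

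**Figure D5:**
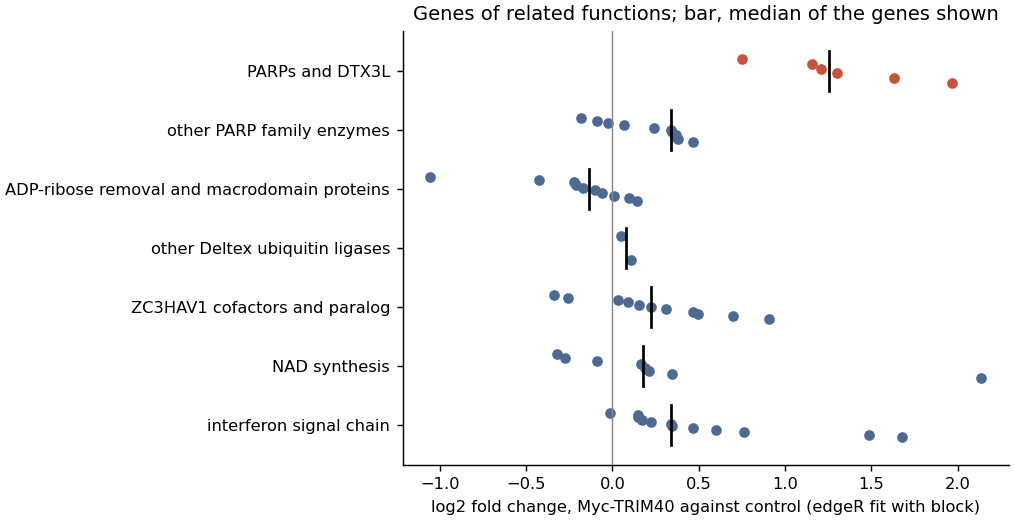
log2 fold change of Myc-TRIM40 against control in the edgeR fit with block (horizontal) for the 6 genes (red) and for genes of related functions (blue), 1 point per gene tested, with a black bar at the median of each group. The 6 genes lie between 0.75 and 1.97, and among the other groups IRF9, USP18 and NMNAT3, the last from no more than 30 reads, exceed 1.

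Genes with the pattern most like that of the 6 were sought among all genes averaging 1 FPKM or more, by the Euclidean distance between log2(FPKM + 1) over the 4 libraries, centred on each gene's mean, and the median of the 6 genes. The 4 nearest were DDX60L at a distance of 0.204, IRF9 at 0.220, CFB at 0.246 and HSH2D at 0.275. DDX60L stood at 0.906 and 7.56 FPKM in experiment 1 and at 0.920 and 1.76 FPKM in experiment 2. CFB, complement factor B, stood at 1.38 and 10.2 FPKM in experiment 1 and at 1.15 and 2.19 FPKM in experiment 2. The likeness rests on 4 libraries and is a description of their values.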

How the data were processed

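RNA-seq was made with the TruSeq Stranded mRNA LT kit from HT-29 cells with a control vector or Myc-TRIM40, in 2 experiments. The submitters' processing notes name HISAT2 2.1.0, StringTie 1.3.4d and hg19, without their roles. The authors deposited, per RefSeq transcript, an estimated count of reads in whole numbers, not normalized, and FPKM. For experiment 2 the authors also deposited TPM, and experiment 1 had its TPM computed here from FPKM. The other deposited values used were transcript lengths.

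Counts were summed per gene and tested with edgeR 4.0.16 (glmQLFTest, TMM, filterByExpr, Benjamini-Hochberg over 14868 genes) in R 4.3.3, with experiment as a block. Libraries were paired by the replicate number of their labels, and each table holds the libraries of 1 experiment. Same-numbered libraries deviated together (correlation 0.45). The fit had a common dispersion of 0.0484 and 1 residual degree of freedom. Whether the replicates are separate cultures is not stated beyond their being independent experiments. On simulated counts over 14831 genes, this test found 97 of 100 genes changed 4-fold and 29 of 100 changed 2-fold, and called 12 unchanged genes. The simulation gave every gene the common dispersion and the same fold in both experiments, without an experiment effect. The folds of the 6 genes differed between experiments, so these rates do not carry over to them. Ratios of FPKM used a pseudocount of 1, and a gene at 0 reads was bounded at 3 reads. Alternatives were no block, DESeq2 1.42.0, limma 3.58.1 on log2(FPKM + 1), other scalings, no filter and each experiment alone. RefSeq promoter windows were matched by symbol for 5 of the 6 genes. The genes, lists and rules for naming genes (all 6 genes, extremes of each list, the nearest profiles) were chosen with earlier results of these data known. Some results that these rules cover are left out here.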

Additional observations from a re-analysis of the deposited data

How the results depend on the processing

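The log2 fold change of all 6 genes stayed above 0 under each of 6 alternatives (no replicate block, DESeq2, limma on log2(FPKM + 1), upper-quartile scaling, median-centred ratios and no filter on low counts), and ranged from 1.83 to 2.30 for PARP9, 1.16 to 1.60 for PARP10, 1.13 to 1.38 for PARP12, 1.61 to 1.84 for PARP14, 1.28 to 1.43 for DTX3L and 0.72 to 0.83 for ZC3HAV1. Without the replicate block PARP9 had 2.30, and the number of the 6 genes at an adjusted p under 0.05 was 0, as with it. In that fit 4 of the 6 had an unadjusted p under 0.05, and the share over all genes was not computed. With DESeq2 the log2 fold changes of PARP9 (1.94), PARP14 (1.61) and DTX3L (1.28) passed the threshold, so 3 of the 6 genes were called, and over all genes 45 were called higher (6 in edgeR) and 9 lower (3 in edgeR); the cause was not tested. Without the block and without the filter on low counts, 0 genes of the whole table were called higher, and limma called 3. At a limit of 2-fold in place of 1.5-fold, 2 of the 6 genes, PARP9 and PARP14, passed in both experiments. The share of all genes beyond 2-fold was not computed, so this count has no background. Median-centred ratios lost ZC3HAV1 and TPM gained PARP12 at 1.5-fold. The leading transcript of ZC3HAV1 held on average 89.0% of its reads and 78.7% of its FPKM, which divides by length, and the 6801-base transcript of PARP9 held 35.2% and 21.1%. Each experiment alone gives a ratio with no test: leaving out experiment 2 gave 2.87 for PARP9 and 2.38 for PARP10, and leaving out experiment 1 gave 1.06 and 0.03.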
